A study of Homo sapiens with 6 samples.

Results

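Insulin-like growth factor (IGF) signalling genes were followed by name on whole-transcript expression arrays of multiple myeloma cells: the receptor genes IGF1R, INSR and IGF2R, the ligand gene IGF1, the binding protein genes IGFBP2, IGFBP3 and IGFBP4, and the adaptor genes IRS1 and IRS2. The platform annotation named 8 of these 9 genes, each with 1 probe set, among 14884 named genes. IGFBP2 was not among the named probe sets and was not analysed here. There were 6 arrays, 1 for each of 2 transfections in each of 3 established human cell lines, RPMI8226, KMS11 and U266, which derive from myeloma, a cancer of plasma cells. The mimic group received 100 nM miR-10a mimic and the control group 100 nM scrambled control (Negative Control 1), both with the HiPerFect reagent in serum-containing medium, and cells were collected 48 h later. The labels name no separate cultures, so each array stands for 1 culture of 1 line, and p-values measure only the spread between these arrays, which may be technical.

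IGF1 binds IGF1R, a receptor tyrosine kinase, which phosphorylates the insulin receptor substrates IRS1 and IRS2, and these pass the signal to PI3 kinase and AKT. INSR, the insulin receptor, is the closest relative of IGF1R and can form hybrid receptors with it, while IGF2R carries no kinase and takes IGF2 to the lysosome. Binding proteins hold IGFs outside the cell and set how much reaches the receptor, and in myeloma IGF1 from the bone marrow is known as a growth and survival factor. MicroRNA-10a is encoded in the HOXB cluster, and microRNAs lower transcripts mainly through pairing of their seed. The mature strands of MIR10A in RefSeq (GRCh38.p14) are shown because a mimic supplies such a strand, with the seed, bases 2 to 8, in capitals. The labels do not say which strand the mimic carried.
hsa-miR-10a-5p: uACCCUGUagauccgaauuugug
hsa-miR-10a-3p: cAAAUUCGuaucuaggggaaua

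The deposited values are log2 expression values, in which 1 unit is a 2-fold difference, and the median of all named genes was 4.70 units. Genes with a mean at or above that median were tested, which kept 7442 genes and 6 of the 8 named IGF axis genes. IGF1, with a mean of 4.30, and IRS1, with a mean of 4.68, lay below it, and their tests come from the fit of all 14884 named genes. The median per array ran from 3.61 to 3.66 units. All 7 named plasma cell markers of 10 listed were above the filter on average over the 6 arrays, though SLAMF7 was above it in U266 alone and CD38 was below it in U266, with a mean level per array of 6.81 to 7.97 in the mimic group and 6.77 to 7.93 in the control group. All named stromal, myeloid and hepatocyte markers were below it (2 of 6, 3 of 5 and 3 of 4 listed), as were 2 of 3 named B cell and 1 of 2 named T cell markers. FGFR3, whose locus is translocated in KMS11, stood at 8.69 with mimic and 8.62 with control in that line and at no more than 3.95 in the other arrays. In bulk RNA, fewer cells expressing a gene and less RNA of it per cell cannot be told apart.

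The differences that passed a test lay between the lines, not between mimic and control. RPMI8226 stood apart from KMS11 and U266, with INSR 4.74-fold and 4.69-fold lower, IGFBP3 higher by 4.07 and 4.33 log2 units, and IRS1 differing by -1.56 and -1.88. The low side of IGFBP3 (KMS11 and U266) and of IRS1 (RPMI8226) lay near the median of all probe sets, and the table gives no detection calls, so no fold is given for these. IGF1R was higher in RPMI8226 by 0.37 and 0.31 log2 units, and IGF2R and IRS2 did not pass in any pair of lines. KMS11 and U266 differed in none of the 8 genes past the threshold. The tests compare the 2 arrays of each line in limma, with the treatment as a term.

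**Figure D1:**
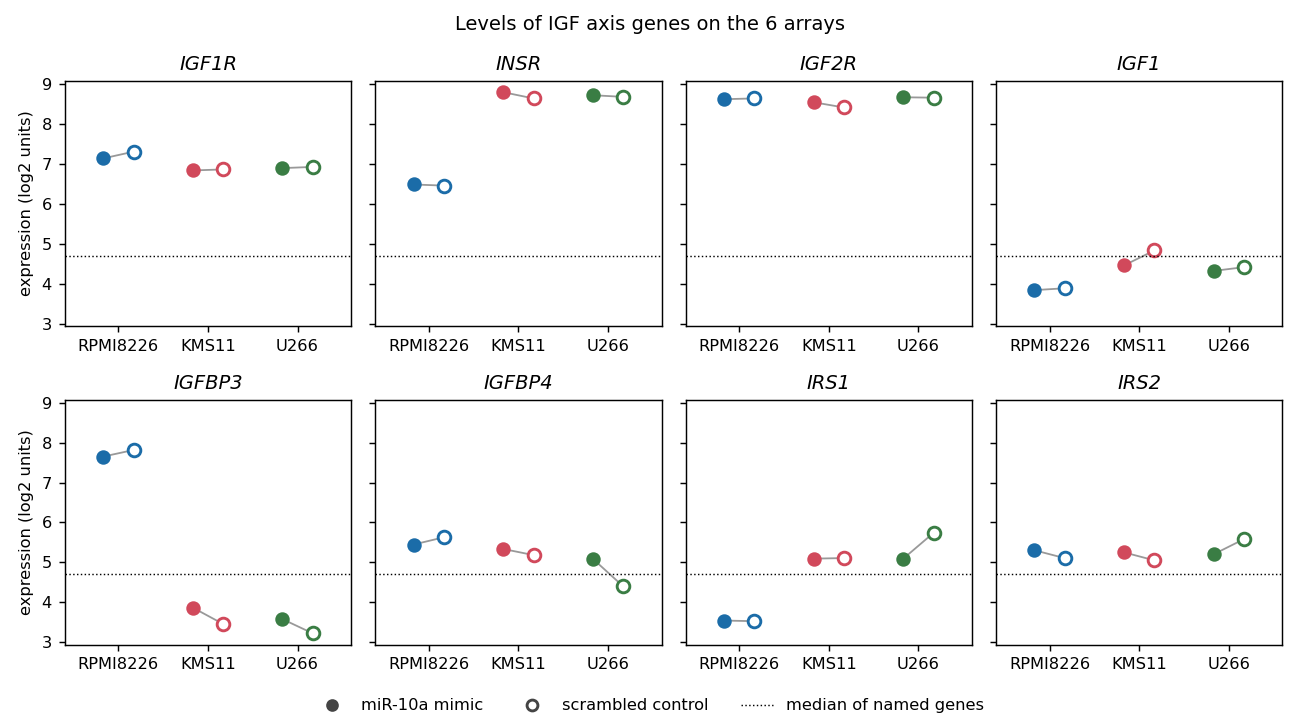
Expression in log2 units of the 8 named IGF axis genes, 1 panel per gene, with 1 point per array: filled for miR-10a mimic, open for scrambled control, joined within a line, and a dotted line at the median of named genes (4.70). The 2 RPMI8226 arrays are the highest for IGFBP3 (7.65 with mimic, 7.81 with control) and the lowest for INSR (6.49 with mimic, 6.46 with control).

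Among the receptors, INSR differed most widely between RPMI8226 and the other lines. It stood at 6.49 with mimic and 6.46 with control in RPMI8226, at 8.80 with mimic and 8.64 with control in KMS11, and at 8.72 with mimic and 8.68 with control in U266. Both RPMI8226 arrays lay far below the other 4, whose ranges in KMS11 and U266 overlapped. RPMI8226 minus KMS11 was -2.25 log2 units, or 4.74-fold lower in RPMI8226, with a 95% confidence interval from -2.45 to -2.04 (limma, adjusted p = 9.66e-06). RPMI8226 minus U266 was -2.23 (-2.43 to -2.02, limma, adjusted p = 8.06e-06). KMS11 minus U266 was 0.02 (-0.19 to 0.22, limma, adjusted p = 0.867). The gap between RPMI8226 and KMS11 was -2.31 in the mimic arrays alone and -2.18 in the control arrays alone.

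IGF1R, the signalling receptor for IGF1, was present at a similar level in all 3 lines. It stood at 7.14 with mimic and 7.31 with control in RPMI8226, at 6.84 with mimic and 6.86 with control in KMS11, and at 6.90 with mimic and 6.93 with control in U266. The RPMI8226 arrays were the highest and did not overlap with the others. The differences were small: RPMI8226 minus KMS11 was 0.37 (0.16 to 0.58) and RPMI8226 minus U266 was 0.31 (0.10 to 0.52), or 1.24-fold (limma, adjusted p = 0.00961 and 0.0181). Both calls rested on single arrays. Without the RPMI8226 control array the differences were 0.30 and 0.24 (limma, adjusted p = 0.0649 and 0.108). Without the KMS11 control array the first was 0.34 (adjusted p = 0.0726), without the U266 mimic or control array the second was 0.35 or 0.28 (adjusted p = 0.0533 or 0.107), and with no filter the second had an adjusted p of 0.0535. KMS11 minus U266 was -0.06 (-0.27 to 0.15, limma, adjusted p = 0.567).

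IGF2R, the clearance receptor for IGF2, had the most even level. It stood at 8.62 with mimic and 8.64 with control in RPMI8226, at 8.55 with mimic and 8.42 with control in KMS11, and at 8.67 with mimic and 8.66 with control in U266. The widest of its 3 differences between lines, KMS11 minus U266, was -0.19 (-0.39 to 0.02) and did not pass (limma, adjusted p = 0.103). It passed at the same value among the upper 25% of genes by level (adjusted p = 0.0451) and with a variance trend (adjusted p = 0.0239).

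The ligand gene IGF1 was low on the scale of the arrays in every line. It stood at 3.84 with mimic and 3.89 with control in RPMI8226, at 4.46 with mimic and 4.84 with control in KMS11, and at 4.32 with mimic and 4.42 with control in U266. RPMI8226 held the lowest values, and only the KMS11 control array exceeded the median of named genes. RPMI8226 minus KMS11 was -0.78 (-1.07 to -0.49, limma over all named genes, adjusted p = 0.00304). RPMI8226 minus U266 was -0.50 (-0.80 to -0.21, adjusted p = 0.0171), but -0.41 without the RPMI8226 control array (adjusted p = 0.118) and -0.45 without the U266 mimic array (adjusted p = 0.093). Whether IGF1 stood above background is likewise unknown.

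IGFBP3, the main carrier of IGFs in blood and a secreted inhibitor or enhancer of their action depending on context, had the widest spread between lines among these genes. It stood at 7.65 with mimic and 7.81 with control in RPMI8226, at 3.87 with mimic and 3.46 with control in KMS11, and at 3.58 with mimic and 3.22 with control in U266. The KMS11 and U266 arrays all lay below the median of named genes, and their ranges overlapped. IGFBP3 passed the filter on its mean through RPMI8226 alone, and whether it stood above background in KMS11 and U266 is unknown. RPMI8226 minus KMS11 was 4.07 (3.69 to 4.45) and RPMI8226 minus U266 was 4.33 (3.95 to 4.71) on the scale of the deposited values (limma, adjusted p = 1.02e-05 and 6.67e-06). KMS11 minus U266 was 0.26 (-0.12 to 0.64, adjusted p = 0.186), and it passed at that value when either RPMI8226 array was left out (adjusted p = 0.042).

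IGFBP4, a binding protein that restrains IGF action until it is cleaved, stood at 5.45 with mimic and 5.63 with control in RPMI8226, at 5.34 with mimic and 5.18 with control in KMS11, and at 5.09 with mimic and 4.40 with control in U266. The U266 control array was the lowest of the 6. RPMI8226 minus U266 was 0.79 (0.30 to 1.28), or 1.73-fold (limma, adjusted p = 0.0136), but 0.49 without the RPMI8226 control array (adjusted p = 0.0974) and 0.44 without the U266 control array (adjusted p = 0.0364). KMS11 minus U266 was 0.51 (0.02 to 1.00, limma, adjusted p = 0.0652), and it was 0.87 without the U266 mimic array (adjusted p = 0.00174) and 0.16 without the U266 control array (adjusted p = 0.408). RPMI8226 minus KMS11 was 0.28 (-0.21 to 0.77, limma, adjusted p = 0.261).

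The adaptors behaved differently from each other across the lines. IRS1 stood at 3.54 with mimic and 3.53 with control in RPMI8226, at 5.09 with mimic and 5.11 with control in KMS11, and at 5.09 with mimic and 5.74 with control in U266. As with INSR, both RPMI8226 arrays lay below all the others, and whether they stood above background is unknown. RPMI8226 minus KMS11 was -1.56 (-2.00 to -1.13) and RPMI8226 minus U266 was -1.88 (-2.32 to -1.44) (limma over all named genes, adjusted p = 0.000924 and 0.000387). KMS11 minus U266 was -0.31 (-0.75 to 0.13, adjusted p = 0.243), -0.64 without the U266 mimic array (adjusted p = 0.0179) and 0.01 without the U266 control array.

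IRS2 stood at 5.30 with mimic and 5.11 with control in RPMI8226, at 5.25 with mimic and 5.05 with control in KMS11, and at 5.20 with mimic and 5.58 with control in U266. Its line ranges all overlapped, and its widest difference, KMS11 minus U266, was -0.24 (-0.63 to 0.15, limma, adjusted p = 0.232). Without the U266 mimic array, RPMI8226 minus U266 was -0.48 and KMS11 minus U266 was -0.53 (limma, adjusted p = 0.013 and 0.00865), and without the U266 control array they were 0.10 and 0.05.

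**Figure D2:**
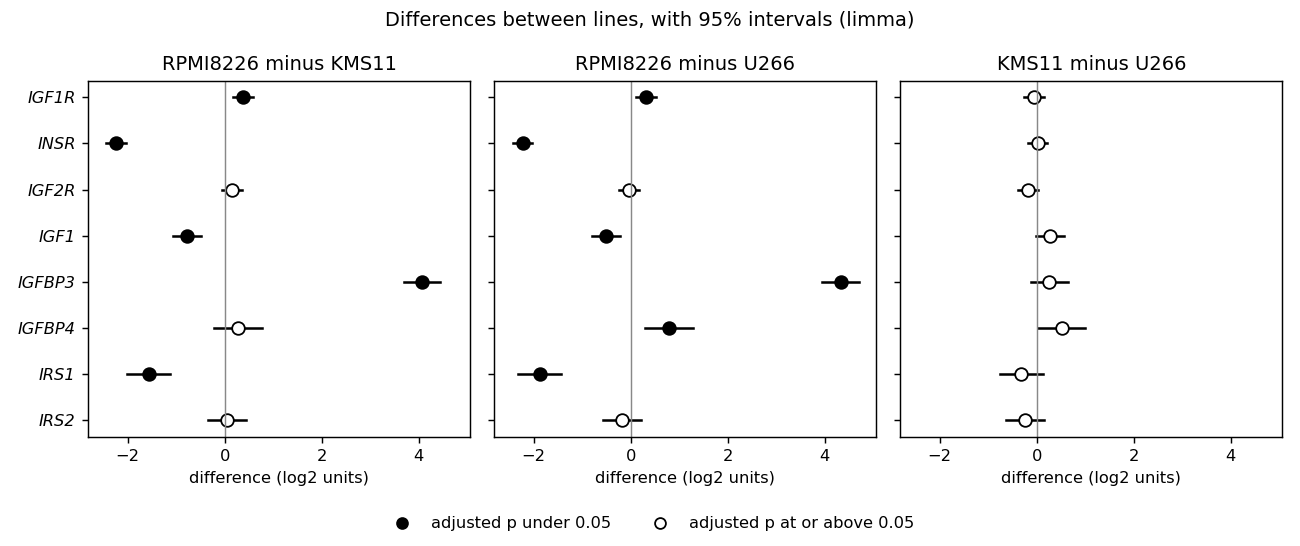
Differences between lines in log2 units for each gene, with 95% confidence intervals from limma, filled where the adjusted p was under 0.05. Every filled point has RPMI8226 on one side, though not every such point is filled, and IGFBP3 (4.07 and 4.33) and INSR (-2.25 and -2.23) lie farthest from 0.

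Differences between these lines were common in the whole table, and the counts of IGF axis genes are read against that. Of the 6 tested genes, 3 passed in RPMI8226 minus KMS11, where 65% of the 7442 tested genes were called, 2 of them higher (29.4% of all) and 1 lower (35.6%). In RPMI8226 minus U266 4 passed, where 67.4% were called, 3 of them higher (32.4%) and 1 lower (35.1%). In KMS11 minus U266, 0 of 6 passed (1 at an unadjusted p under 0.05), where 63.8% were called. By the F test over the 3 lines, 4 of 6 passed, where 82.4% were called. With no filter, 5 of the 8 genes passed in RPMI8226 minus KMS11, where 36.8% of the 14884 genes were called, 2 of them higher (16.4%) and 3 lower (20.4%). In RPMI8226 minus U266 5 of 8 passed, where 39% were called, again 2 higher (18.7%) and 3 lower (20.3%). In KMS11 minus U266 0 of 8 passed (limma, 1 at an unadjusted p under 0.05), where 37.1% were called (19.9% higher, 17.2% lower), and by the F test 6 of 8, where 50.8% were called. IGFBP3 entered these counts of 6 through RPMI8226 alone, so they describe the genes that passed the filter and support nothing further. The gap between the highest and lowest line mean was 4.33 for IGFBP3, which is given without a rank for that reason, and 2.25 for INSR, wider than in 91.8% of tested genes. It was 0.79 for IGFBP4, near the median of all tested genes (0.77), and 0.37 for IGF1R, 0.24 for IRS2 and 0.19 for IGF2R, wider than in 19.9%, 10.6% and 6.81%.

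**Figure D3:**
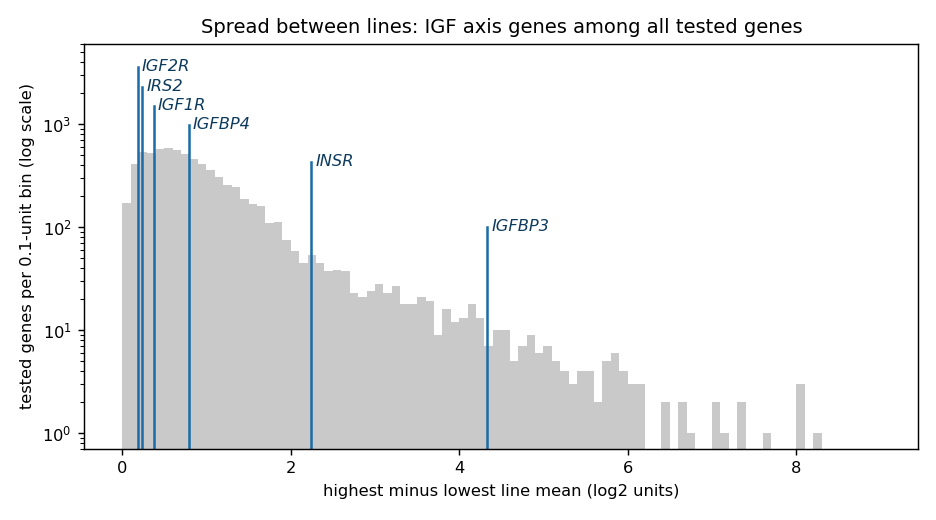
Distribution over the 7442 tested genes of the gap between the highest and lowest line mean in log2 units (grey bars, log scale), with the 6 tested IGF axis genes as vertical lines whose heights carry no value. IGF2R, IRS2 and IGF1R sit at the narrow end, IGFBP4 near the median (0.77), and IGFBP3 (4.33), which passed the filter through RPMI8226 alone, far to the right.

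Promoter sequence was read for the 3 genes whose RPMI8226 level stood farthest apart, IGFBP3, INSR and IRS1. It was also read for IGF1R, whose RPMI8226 differences were smaller, though called. The windows are the 250 bases before the start site in RefSeq (GRCh38.p14), on the gene's strand: chr7:45921273-45921522 (minus) for IGFBP3, chr19:7294415-7294664 (minus) for INSR, chr2:226799821-226800070 (minus) for IRS1 and chr15:98648289-98648538 (plus) for IGF1R. Capitals mark matches on either strand to GGGCGG, the core of the SP1 site, or to the run TATATA. The run TATAAA and the E-box CACGTG were searched in the same way.
IGFBP3: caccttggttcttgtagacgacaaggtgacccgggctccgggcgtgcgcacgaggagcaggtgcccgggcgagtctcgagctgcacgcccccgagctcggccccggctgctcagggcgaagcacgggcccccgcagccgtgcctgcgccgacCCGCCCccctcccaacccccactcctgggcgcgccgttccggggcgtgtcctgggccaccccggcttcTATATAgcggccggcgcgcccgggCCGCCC
INSR: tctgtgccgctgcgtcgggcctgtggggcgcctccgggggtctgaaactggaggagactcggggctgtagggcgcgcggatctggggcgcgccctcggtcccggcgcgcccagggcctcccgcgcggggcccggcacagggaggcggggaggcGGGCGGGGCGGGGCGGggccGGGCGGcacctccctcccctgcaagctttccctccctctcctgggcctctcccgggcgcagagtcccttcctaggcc
IRS1: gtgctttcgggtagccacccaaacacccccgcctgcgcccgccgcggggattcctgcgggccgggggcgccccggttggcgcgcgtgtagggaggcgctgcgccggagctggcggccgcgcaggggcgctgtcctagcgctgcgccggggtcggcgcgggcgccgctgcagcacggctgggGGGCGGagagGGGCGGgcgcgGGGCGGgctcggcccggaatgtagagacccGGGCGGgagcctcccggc
IGF1R: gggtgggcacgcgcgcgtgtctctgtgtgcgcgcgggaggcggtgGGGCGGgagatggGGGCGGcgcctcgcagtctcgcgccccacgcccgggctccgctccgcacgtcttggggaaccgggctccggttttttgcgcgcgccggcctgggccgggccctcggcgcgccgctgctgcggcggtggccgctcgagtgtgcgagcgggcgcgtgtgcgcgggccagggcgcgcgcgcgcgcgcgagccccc

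All 4 windows were rich in G and C, at 76% for IGFBP3, 78.4% for INSR, 80.8% for IRS1 and 81.2% for IGF1R, against a median of 58% over 35114 promoter windows of the same length. GGGCGG occurred 2 times in IGFBP3 and IGF1R and 4 times in INSR and IRS1, with 3 of the INSR matches overlapping by 1 base each, and was found in 42.6% of all windows. TATATA occurred in the IGFBP3 window and in 3.73% of all windows. TATAAA, held by 10.7% of all windows, occurred among the genes followed here in the IGFBP4 window, and CACGTG, held by 6.35%, occurred 3 times in that of IGF2R. Neither of the 2 IGF1 windows held any of the 4 motifs, and their G and C content was 39.6% and 44%. These matches describe letters and are not binding sites.

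With miR-10a mimic, none of the 8 genes changed past the threshold. Of the 6 tested genes, 0 passed (limma with lines paired, smallest adjusted p = 0.917, 0 at an unadjusted p under 0.05), and over all 7442 tested genes 0% were called, with 403 at an unadjusted p under 0.05. Of the 8 genes in the fit of all named genes, 0 passed either (limma, smallest adjusted p = 0.967). The median change of the 6 tested genes was 0.06 log2 units, against -0.0029 over all tested genes.

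IGF1R averaged 6.96 ± 0.16 with mimic and 7.03 ± 0.24 with control (SD, n = 3 lines). Its changes were -0.17, -0.03 and -0.03 (RPMI8226, KMS11, U266), with a 95% confidence interval of the mean from -0.25 to 0.10 (limma, adjusted p = 0.92). It was lower in 3 of 3 lines, as were 13.9% of tested genes. INSR was higher in 3 of 3 lines, by 0.03, 0.16 and 0.04 in that order of lines (-0.09 to 0.24 for the mean, limma, adjusted p = 0.92), as were 12.7% of tested genes. IGF2R differed by -0.02, 0.13 and 0.01 in the same lines, with a mean of 0.04 ± 0.08 (SD, n = 3 lines).

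The less even changes came from single lines, each with 1 mimic array against 1 control array and no replicate check. IGFBP4 was 0.69 log2 units higher with mimic in U266, or 1.62-fold, against -0.18 in RPMI8226 and 0.15 in KMS11, with a mean of 0.22 (-0.18 to 0.62, limma, adjusted p = 0.917). Of all tested genes, 0.551% were at least 1.5-fold higher in U266. IRS1 was -0.65 in U266, or 1.57-fold lower, against 0.02 in RPMI8226 and -0.01 in KMS11, with a mean of -0.22 (-0.57 to 0.14, limma over all named genes, adjusted p = 0.967). Of all named genes, 0.954% were at least 1.5-fold lower in U266. In RPMI8226 and KMS11 none of the 8 genes reached 1.5-fold, where 0.941% and 0.759% of all named genes were that much higher and 1.05% and 0.645% that much lower. Among tested genes the shares were 0.551% and 0.43% higher and 0.497% and 0.443% lower.

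IGFBP3 was higher with mimic by 0.41 in KMS11 and 0.36 in U266, where its level was low, while its difference was -0.17 in RPMI8226, where its level was high. IRS2 was higher by 0.20 in RPMI8226 and 0.20 in KMS11 and was -0.38 in U266. IGF1 was lower in 3 of 3 lines, with differences of -0.05, -0.37 and -0.09 in RPMI8226, KMS11 and U266, as were 11.8% of all named genes. Whether a line's change differed from that of the other lines was tested with a term for that line, which leaves 1 residual degree of freedom. For IGFBP4 in U266 that difference was 0.71 (0.25 to 1.17, limma, adjusted p = 0.55), for IRS2 in U266 -0.58 (-0.97 to -0.19, adjusted p = 0.553), for IRS1 in U266 -0.65 (-1.12 to -0.19, adjusted p = 0.748) and for IGFBP3 in RPMI8226 -0.55 (-0.92 to -0.18, adjusted p = 0.748). No such difference passed for any of the genes, and 0% of all tested genes were called in any of the 3 lines.

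**Figure D4:**
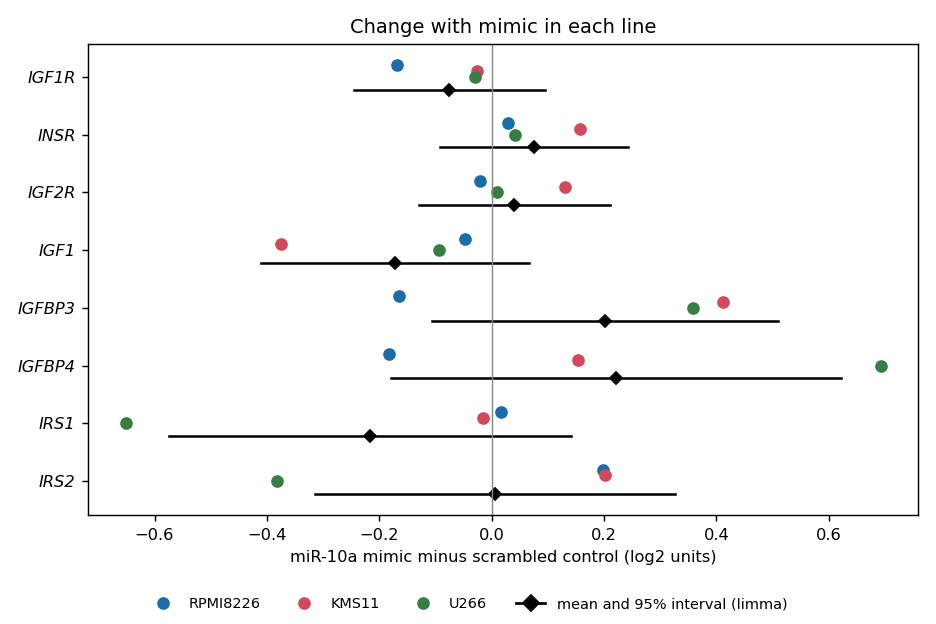
Mimic minus control in log2 units for each gene in each line (coloured points), with the mean over the 3 lines and its 95% confidence interval from limma (black). Every interval includes 0, and the U266 points of IGFBP4 (0.69) and IRS1 (-0.65) lie farthest out.

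Other genes of IGF and insulin signalling were taken from a list of 67, of which 45 were named and 33 tested. With mimic, 0 of 33 passed, and their median change was 0.00049 (limma). Of these 33 tested genes, EIF4EBP1 at 0.18 ± 0.17 and FOXO1 at 0.14 ± 0.37 had the widest mean changes upward. EIF4EBP1 encodes a translation inhibitor that mTOR inactivates. RHEB, an activator of mTOR, followed at 0.14 ± 0.20. Among the lower of the 33, the widest mean changes were those of FOXO3 at -0.20 ± 0.02 and GAB1 at -0.16 ± 0.10. BCL2L11, encoding the pro-apoptotic protein BIM, followed at -0.13 ± 0.16 (SD of 3 lines throughout). FOXO3 has near-identical copies, so its probe set is uncertain.

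Between lines, these 33 genes gave 12 calls higher and 12 lower in RPMI8226 minus KMS11, 16 and 7 in RPMI8226 minus U266, and 18 and 7 in KMS11 minus U266. The whole table gave 29.4% higher and 35.6% lower, 32.4% and 35.1%, and 34% and 29.8% in the same contrasts. Of the 9 tested inhibitors of the pathway, 5 were higher and 1 lower in RPMI8226 than in U266, and 5 higher and 2 lower in KMS11 than in U266. Of these, PHLPP1 and SOCS1 lay below the median of named genes in U266 and passed the filter on their mean through RPMI8226 and KMS11. The counts of 9 and of 33 thus describe the genes that passed the filter and support nothing further. PHLPP1, a phosphatase of AKT, stood at 8.44 with mimic and 8.39 with control in RPMI8226, at 8.50 with mimic and 8.63 with control in KMS11, and at 4.36 with mimic and 4.42 with control in U266. Its U266 arrays lay below the median of named genes, and it entered the test through RPMI8226 and KMS11 alone. Whether PHLPP1 stood above background in U266 is unknown. KMS11 minus U266 was 4.18 for PHLPP1, 2.50 for TRIB3, a pseudokinase that binds AKT, and 2.38 for INPPL1, a lipid phosphatase that opposes PI3 kinase (limma, adjusted p = 2.29e-06, 6.67e-06 and 9.59e-06). RPMI8226 minus U266 was 4.02, 2.81 and 1.17 for the same genes (adjusted p = 1.28e-06, 3.53e-06 and 8.57e-05). SOCS3, a suppressor of cytokine and insulin receptor signalling named after its values were seen, ran the other way and was highest in U266 (RPMI8226 minus U266 -2.19, KMS11 minus U266 -1.23, adjusted p = 3.72e-05 and 0.000405).

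Both tested genes for proteins that bind IGF2 mRNA were lowest in U266. IGF2BP3 stood at 6.98 with mimic and 6.71 with control in RPMI8226, at 6.87 with mimic and 7.14 with control in KMS11, and at 2.41 with mimic and 2.79 with control in U266. IGF2BP3 lay below the median of named genes in U266 and passed the filter on its mean through RPMI8226 and KMS11. Whether it stood above background in U266 is unknown. On the scale of the deposited values, RPMI8226 minus U266 was 4.24 for IGF2BP3 and 2.83 for IGF2BP2 (limma, adjusted p = 9.09e-06 and 0.000106). Of 7 tested adaptors acting beside IRS1 and IRS2, GAB1 was lowest in KMS11 (KMS11 minus U266 -1.71, adjusted p = 3.3e-05), and SOS1 and CRKL were lowest in RPMI8226 (RPMI8226 minus KMS11 -1.20 and -1.16, adjusted p = 7.71e-05 and 0.000103). Of AKT and mTOR genes, RHEB and AKT2 were highest in KMS11 (RPMI8226 minus KMS11 -0.72 and -0.81, adjusted p = 0.00221 and 0.000525). MTOR ran the other way and was highest in RPMI8226, at 8.68 with mimic and 8.61 with control, against 8.17 and 8.12 in KMS11.

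STC2, encoding an inhibitor of the protease that cleaves IGFBP4, was highest in RPMI8226, at 7.75 with mimic and 7.69 with control, with RPMI8226 minus U266 at 1.25 (limma, adjusted p = 8.57e-05). IGFBP6, the other tested binding protein gene, passed in RPMI8226 minus KMS11 (0.45, adjusted p = 0.0299) but not by the F test over lines (adjusted p = 0.0515). It passed the filter on its mean (4.72) through RPMI8226 alone, the line where it was called higher. Both its KMS11 arrays lay below the median of named genes (4.67 with mimic, 4.39 with control), and whether it stood above background there is unknown. All 8 tested genes of a list of FOXO factors, FOXO targets and the AKT substrates GSK3A and GSK3B passed the F test over lines, as did 82.4% of all tested genes. CCNG2 was lowest in RPMI8226 (RPMI8226 minus KMS11 -1.88, adjusted p = 3.03e-05) and BCL2L11 highest there (1.64, adjusted p = 5.92e-05). In RPMI8226 CCNG2 lay below the median of named genes (3.86 with mimic, 4.03 with control), and whether it stood above background there is unknown. FOXO3, with the same doubt about its probe set, was lowest in U266 (RPMI8226 minus U266 1.29, adjusted p = 4.33e-05).

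**Figure D5:**
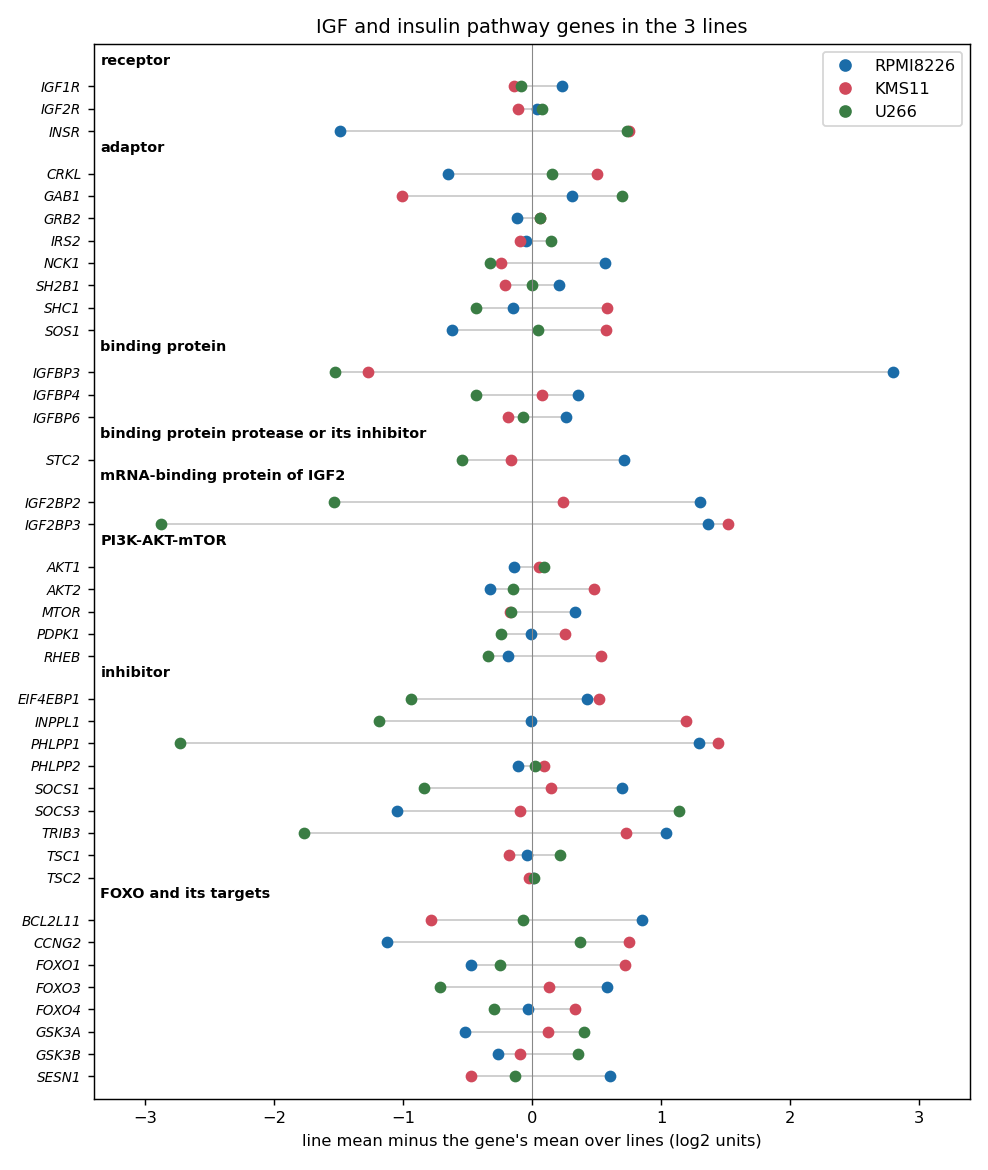
Mean of each line minus the gene's mean over the 3 lines, in log2 units, for the tested IGF and insulin pathway genes grouped by role. RPMI8226 lies far right for IGFBP3 and far left for INSR. U266 lies far left for IGF2BP3 and PHLPP1, whose U266 levels were below the median of named genes.

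For each tested IGF axis gene, the 2 tested genes with the most similar values over the 6 arrays were found, by the root mean square difference after centring each gene. INSR was most like PARM1 (0.06 log2 units) and LRRCC1 (0.08), and IGF1R was most like NKD1 (0.04) and EIF5B (0.04). IGFBP3 was closest to ADGRE5 (0.23) and SIRPA (0.28), which are looser matches on a wider spread. IGFBP4 was closest to CHCHD10 (0.11) and GPSM3 (0.11), IGF2R to GHDC (0.03) and USP5 (0.03), and IRS2 to PHF23 (0.06) and LPIN3 (0.08). With 6 arrays in 3 lines, such matches describe shared levels by line and treatment and carry no test.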

How the data were processed

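Values for 53617 probe sets were analysed on the log2 scale as deposited in 1 table. The submitters' processing notes name Affymetrix Expression Console 1.3.0. How background, normalization, summarization and build were set is not given here. Weak signals can be compressed toward 0 by such summaries. The platform annotation gave 1 symbol for 16098 probe sets, several for 0, and none for 37519. The gene identifiers of all 16098 probe sets with a symbol matched the RefSeq table (GRCh38.p14). Where a gene had several probe sets, the 1 with the greatest average level was kept.

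Tests used limma 3.58.1 (R 4.3.3), with lmFit and then eBayes without trend (2.00 residual and 3.82 prior degrees of freedom). They were two-sided, with Benjamini-Hochberg adjustment over all tested genes at a threshold of 0.05, and the scripts were tested on simulated data. Mimic and control were paired by line through a block, since both arrays of a pair come from the same cell line. Deviations of paired arrays correlated at 0.967 to 0.97 across genes. Line contrasts had treatment as a term. Line names come from the titles.

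All 8 genes were named by rule. Other pathway genes were named by their largest difference between lines within a role, or by mean change with mimic. Genes and lists were chosen with earlier results of these data known. Alternatives covered the filter, scaling, variance trend, probe set rule, block and leaving out arrays. The number of arrays limits the precision.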

Additional observations from a re-analysis of the deposited data

How the results depend on the processing

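Replicate numbers 1, 2 and 3 stand for RPMI8226, KMS11 and U266. Without the block that pairs arrays by line, 0 genes were called between mimic and control, as with it, and it changed no call for the 8 genes. All calls of INSR, IGFBP3 and IRS1 against RPMI8226 held in every alternative run that tested the gene. IGFBP3 and IRS1 were not tested under the stricter filter on level. Over all alternatives, mimic changes of the 8 genes kept their sign in 67 of 73, and line differences kept sign and call in 260 of 291. With arrays centred on their medians the mimic change of IRS2 was -0.0027, and under quantile normalization RPMI8226 minus KMS11 of IRS2 was -0.0042. When 1 line was left out, mimic changes ran from -0.0053 to 0.071 for IGF2R, from -0.014 to 0.42 for IGFBP4, from -0.33 to 0.00090 for IRS1 and from -0.092 to 0.20 for IRS2. When 1 array was left out, RPMI8226 minus KMS11 ran from -0.023 to 0.58 for IGFBP4 and from -0.093 to 0.20 for IRS2. RPMI8226 minus U266 ran from -0.079 to 0.012 for IGF2R and from -0.48 to 0.10 for IRS2, and KMS11 minus U266 from -0.043 to 0.079 for INSR, from -0.64 to 0.013 for IRS1 and from -0.53 to 0.050 for IRS2.

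Among the upper 25% of genes by level, 3721 genes were tested in place of 7442, and the calls were fewer in number but a larger share: 2933 (78.8%) in RPMI8226 minus KMS11, 2899 (77.9%) in RPMI8226 minus U266, 2852 (76.6%) in KMS11 minus U266 and 3474 (93.4%) by the F test. Of the 3 IGF axis genes then tested, IGF1R, INSR and IGF2R, 2, 1 and 2 were called in RPMI8226 minus U266, KMS11 minus U266 and the F test. IGF axis genes called in RPMI8226 minus KMS11 were 5 with no filter, since IGF1 and IRS1 then enter. In KMS11 minus U266, 1 was called after centring, where 4747 of all 7442 tested genes were called. With a variance trend 2 were called, where 4880 of 7442 were. When 1 array was left out, 2 to 4 were called in RPMI8226 minus U266, 2 to 5 by the F test and 0 to 2 in KMS11 minus U266. In the first 2 of these tests the lowest count came without the RPMI8226 control array. Leaving out an array leaves 1 array in its line, so these ranges are not read against the whole table. Nothing is concluded from them about IGF axis genes as a group. For a mimic effect particular to 1 line, 15 genes were called in KMS11 with a variance trend, and in U266 10 under the stricter filter and 28 with the trend, none an IGF axis gene; the cause was not tested. That test could not be repeated without an array, since no residual degrees of freedom remain. The 6 arrays and the lack of detection calls limit what can be told of small differences and low levels.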
